A study of Mus musculus with 6 samples.

Results

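The small proline-rich (Sprr) genes described here are Sprr1a, Sprr1b, Sprr2d, Sprr2e, Sprr2f, Sprr2h, Sprr2i, Sprr2k and Sprr3, which are 9 of the 19057 mouse genes that the microarrays measured with a named probe. The genes were selected on their tumour signals on these same arrays and then listed by name, and each was read from its annotated probe with the highest mean signal. For these 9 genes the comparisons with tumours are therefore descriptions without p-values. All 9 genes passed the detection filter that left 11998 genes for testing, but Sprr3 passed it through the tumour arrays alone. Sprr1a and Sprr2d were detected on all 6 arrays.

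The study set mice with the innate immune adaptor STING against mice without it under a chemical carcinogen. All mice were of the C57BL6/129Sv background and labelled as 8-week-old, and their shaved dorsal skin was painted weekly. The solvent control was 100 µl of acetone, and the carcinogen was 10 µg of DMBA, a polycyclic aromatic hydrocarbon, given in the same volume of acetone over 18 to 20 weeks. Wild-type (WT, Sting +/+) mice gave 1 array of acetone-painted skin and 2 arrays of DMBA-induced skin tumours. STING-deficient (SKO, Sting -/-) mice gave 1 array of acetone-painted skin and 2 arrays of DMBA-painted skin that was not labelled as tumour. Genotype and kind of tissue therefore change together between the DMBA groups and cannot be told apart. No label says that each sample came from its own mouse, so the spread behind the p-values may be technical. On each array 35.5% to 43.3% of the 45281 probes had a detection p under 0.01. Precision is limited by how few arrays there were. Every array detected 5 of 5 basal and at least 4 of 5 suprabasal keratinocyte markers, while muscle, fat and fibroblast markers ran far lower in the tumours than in the skin samples.

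Sprr proteins are building blocks of the cornified envelope, the cross-linked protein shell that replaces the plasma membrane of a keratinocyte as it completes differentiation. Transglutaminases join the glutamine- and lysine-rich ends of Sprr proteins to loricrin, involucrin and other precursors, and the Sprr proteins act as bridges between them. In resting interfollicular epidermis loricrin makes up most of the shell, while Sprr1 and Sprr2 genes are known for their induction in squamous epithelia under stress, and Sprr3 is typical of oral and oesophageal epithelium. The genes lie side by side in the epidermal differentiation complex on chromosome 3, and AP-1 (Jun and Fos dimers) is the best known regulator of Sprr1 promoters.

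The RefSeq promoter windows (assembly GRCm38.p6) of these genes show what the family shares outside the expression values. Each window runs from 250 bases before to 50 bases after the annotated start, and all 9 genes have one. The 4 windows below are shown whole because they stand for the kinds of promoter in the family: a Sprr2 gene, both Sprr1 genes and Sprr3. All are written 5′ to 3′ on the strand of the gene. Capitals mark exact matches to the AP-1 letters TGANTCA, the octamer ATTTGCAT or the TATA letters TATAAA on the strand of the gene.
Sprr2d, chr3:92338890-92339189, plus strand: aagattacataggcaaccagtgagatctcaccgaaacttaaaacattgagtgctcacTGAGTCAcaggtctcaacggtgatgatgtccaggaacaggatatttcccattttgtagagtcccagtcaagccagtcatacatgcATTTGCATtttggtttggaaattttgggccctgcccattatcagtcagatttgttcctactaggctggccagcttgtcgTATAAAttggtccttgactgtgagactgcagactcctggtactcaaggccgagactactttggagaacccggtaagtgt
Sprr1b, chr3:92438730-92439029, minus strand: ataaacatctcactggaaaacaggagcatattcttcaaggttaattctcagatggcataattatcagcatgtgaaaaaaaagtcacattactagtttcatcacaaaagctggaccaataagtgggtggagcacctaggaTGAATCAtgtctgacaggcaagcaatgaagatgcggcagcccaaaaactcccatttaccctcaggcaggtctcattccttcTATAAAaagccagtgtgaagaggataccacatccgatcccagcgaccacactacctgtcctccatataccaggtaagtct
Sprr1a, chr3:92485832-92486131, minus strand: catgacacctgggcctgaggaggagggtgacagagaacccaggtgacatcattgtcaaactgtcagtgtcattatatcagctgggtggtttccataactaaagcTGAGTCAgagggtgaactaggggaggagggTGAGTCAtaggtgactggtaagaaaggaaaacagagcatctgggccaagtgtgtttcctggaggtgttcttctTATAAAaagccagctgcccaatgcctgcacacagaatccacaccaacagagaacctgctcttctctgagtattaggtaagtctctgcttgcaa
Sprr3, chr3:92458671-92458970, minus strand: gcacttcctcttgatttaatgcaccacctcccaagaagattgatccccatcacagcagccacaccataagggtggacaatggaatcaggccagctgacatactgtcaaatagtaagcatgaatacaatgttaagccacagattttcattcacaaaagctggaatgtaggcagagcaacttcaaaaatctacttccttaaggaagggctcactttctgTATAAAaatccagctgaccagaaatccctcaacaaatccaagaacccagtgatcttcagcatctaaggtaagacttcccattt

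The other 5 Sprr2 windows held the same 3 kinds of match, so only the 60 bases around their AP-1 letters are shown, with those letters in capitals.
Sprr2e, chr3:92351935-92351994, plus strand: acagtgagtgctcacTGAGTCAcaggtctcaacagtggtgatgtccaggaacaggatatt
Sprr2f, chr3:92364975-92365034, plus strand: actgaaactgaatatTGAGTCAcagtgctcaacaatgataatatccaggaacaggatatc
Sprr2h, chr3:92385472-92385531, plus strand: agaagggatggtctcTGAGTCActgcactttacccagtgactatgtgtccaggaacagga
Sprr2i, chr3:92407783-92407842, plus strand: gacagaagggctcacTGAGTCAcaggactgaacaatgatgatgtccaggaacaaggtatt
Sprr2k, chr3:92432371-92432430, plus strand: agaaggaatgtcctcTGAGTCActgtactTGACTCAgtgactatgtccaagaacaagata

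All 6 Sprr2 members carried TGAGTCA with its first base 193 to 198 bases before the start. Sprr2k alone had a second AP-1 match among them, TGACTCA at 182 bases. The octamer lay 108 to 112 bases before the start in 6 of 6 Sprr2 members, and TATAAA lay at 29 bases in all of them. Sprr1b carried its AP-1 letters as TGAATCA at 111 bases, and Sprr1a carried TGAGTCA at 146 and at 116 bases. In Sprr3 no TGANTCA was in the window, and TATAAA lay at 33 bases.

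Both strands of all 32851 RefSeq mouse promoter windows were searched for the same letters, and overlapping matches of different motifs were all kept. TGANTCA occurred in 7.81% of windows and in 8 of the 9 Sprr windows. ATTTGCAT occurred in 1.74% of windows and in 6 of 9, all of them Sprr2 genes. TATAAA occurred in 13.6% of windows and in 9 of 9. The antioxidant response letters TGACNNNGC occurred in 12.4% of windows and in 2 of 9, Sprr2f and Sprr1a, and in Sprr1a that match, on the opposite strand, overlapped the AP-1 letters. The STAT letters TTCNNNGAA occurred in 8.30% of windows and in 1 of 9, Sprr2i, where they lay after the start. The 6 Sprr2 windows are related to differing degrees, so their matches are not independent. Over their 15 pairs, identity of aligned bases, gaps left out, ran from 69.3% (Sprr2i and Sprr2k) to 89.9% (Sprr2d and Sprr2e). The low end was close to the 69.0% between Sprr1b and Sprr3. A match describes letters in a window and is not a measured binding site.

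**Figure D1:**
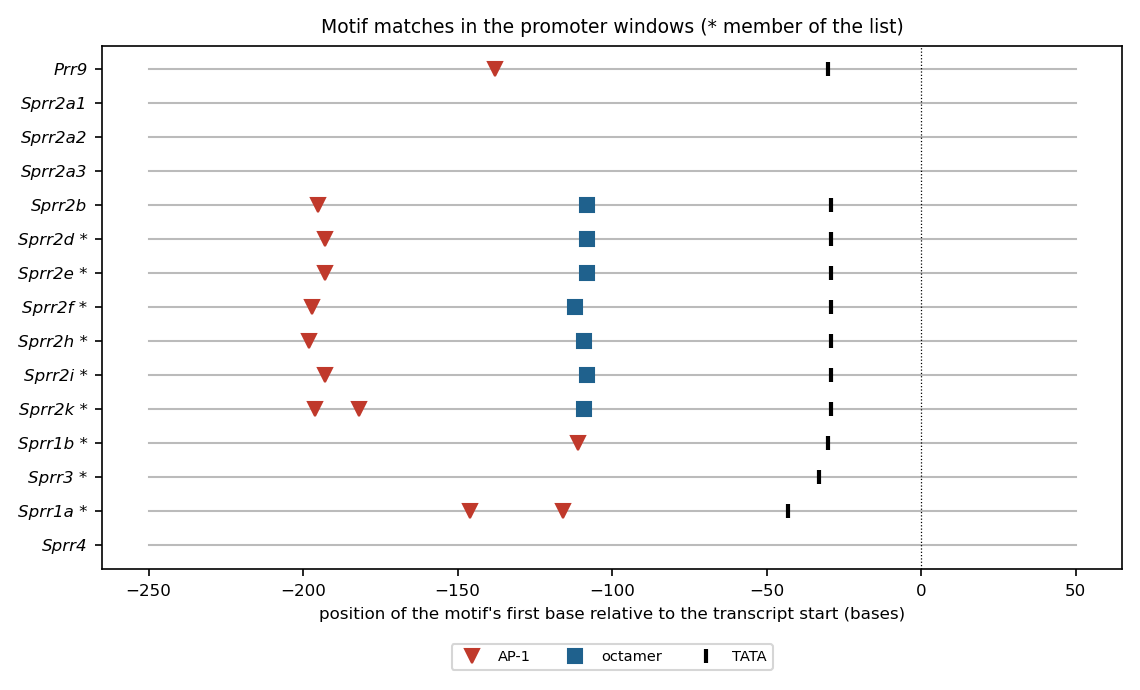
Position of motif matches in the promoter windows of the 9 Sprr genes and their neighbours, with distance from the annotated start in bases on the horizontal axis and 1 gene per row. The AP-1 matches of the 6 Sprr2 members line up between 198 and 193 bases before the start, apart from the second Sprr2k match at 182, and Sprr3 has a TATA match alone.

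The Sprr2 genes, the largest branch of the family, were at low signal in WT acetone skin and at high signal in both WT tumours. Sprr2d read a deposited intensity of 167.3 in WT acetone skin, 24998.7 and 28871.3 in the tumours, 115.3 in SKO acetone skin, and 766.5 and 2850.8 in SKO DMBA skin. The tumours were above every skin array, and both SKO DMBA arrays lay between the acetone arrays and the tumours. After background correction and normalization the tumour mean exceeded WT acetone skin by 8.04 on the log2 scale (SE 0.93, 2 arrays against 1), a 263-fold difference. Intensities include the background of the array, so an undetected probe does not read 0.

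Sprr2e gave 81.5 in WT acetone skin, 6895.2 and 5505.7 in the tumours, 89.6 in SKO acetone skin, and 226.3 and 521.9 in SKO DMBA skin. It was not detected in either acetone sample, so the tumour level is given as a bound, at least 179-fold higher than in WT acetone skin. Such bounds set the bright mean against the lowest signal that counted as detected on the dim array. They hold for background-corrected signals and are not limits under other processing. Without that correction the tumour differences from WT acetone skin were 6.23 (Sprr2e), 6.52 (Sprr2i), 7.98 (Sprr2k) and 4.96 (Sprr3) in log2. With it they were 7.79, 8.23, 9.71 and 6.54. Sprr2f gave 99 in WT acetone skin, 8176.1 and 6080.6 in the tumours, 82.1 in SKO acetone skin, and 137.3 and 322.6 in SKO DMBA skin. Of the acetone samples, WT skin alone gave a detectable Sprr2f signal, and the tumours exceeded it by 7.41 in log2 (SE 0.80). Sprr2i gave 63.5 in WT acetone skin, 6305 and 5683.9 in the tumours, 83 in SKO acetone skin, and 94.5 and 142.1 in SKO DMBA skin. Its tumour level was at least 175-fold above undetected WT acetone skin, and the first SKO DMBA array lay just above detection.

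Sprr2h, like Sprr2d and Sprr2f, was detected in WT acetone skin. Its intensity was 300.1 there, 8296.6 and 6143.8 in the tumours, 82.6 and undetected in SKO acetone skin, and 595.8 and 637.5 in SKO DMBA skin. The tumours were 5.05 higher in log2 than WT acetone skin (SE 0.30), a 33.2-fold difference. Its SKO DMBA arrays lay 1.17-fold apart, the closest such pair among the 9 genes except Sprr3, which was undetected there.

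Sprr2k read 65.7 in WT acetone skin, 32380 and 9929.1 in the tumours, 73.6 in SKO acetone skin, and 74.9 and 106.1 in SKO DMBA skin. Outside the tumours it was detected on 1 array, the second SKO DMBA sample, and the tumours were at least 501-fold above WT acetone skin. The tumours themselves differed 3.15-fold, with tumour 1 the higher. Sprr2k was the one gene of the 9 with more than 1 probe. Its other probe gave 64.2 in WT acetone skin, 16356.8 and 4003.2 in the tumours, 71.5 in SKO acetone skin, and 67.9 and 76.7 in SKO DMBA skin. That probe was detected in the tumours alone, with tumour 1 again the higher, so the probes order the tumours the same way and differ on the second SKO DMBA sample. Sprr2 transcripts are close in sequence, and probe sequences were not used here, so how far a probe also reads a neighbouring Sprr2 gene is not known.

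The Sprr1 genes encode the longer-known envelope bridges, and they differed from each other. Sprr1b read 1588.4 in WT acetone skin, 37425.1 and 37914.6 in the tumours, 95.1 and undetected in SKO acetone skin, and 1332 and 4514.2 in SKO DMBA skin. The tumours were the highest arrays and differed 1.07-fold from each other, while WT acetone skin fell between the SKO DMBA arrays. On the log2 scale the tumours were 4.71 above WT acetone skin (SE 0.86), a 26.1-fold difference. Sprr1a read 1680.9 in WT acetone skin, 3444.7 and 2546.4 in the tumours, 1897.5 in SKO acetone skin, and 4071.9 and 5357.9 in SKO DMBA skin. Here the tumours were not the highest arrays: they lay above both acetone samples and below both SKO DMBA arrays. Its tumour mean was 1.06 above WT acetone skin in log2 (SE 0.39), a 2.09-fold difference.

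Sprr3, the gene typical of mucosal epithelium, read 67.6 in WT acetone skin, 18644.9 and 274.1 in the tumours, 72.4 in SKO acetone skin, and 70.2 and 76 in SKO DMBA skin. It was detected in both tumours and on no skin array, and tumour 1 stood 68.3-fold above tumour 2. The tumour mean was at least 57.2-fold above WT acetone skin, a value that rests on tumour 1: the log2 difference was 9.59 for tumour 1 and 3.50 for tumour 2. Of the 9 genes, Sprr3 alone differed over 4-fold between the tumours, against 4.25% of all genes tested.

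**Figure D2:**
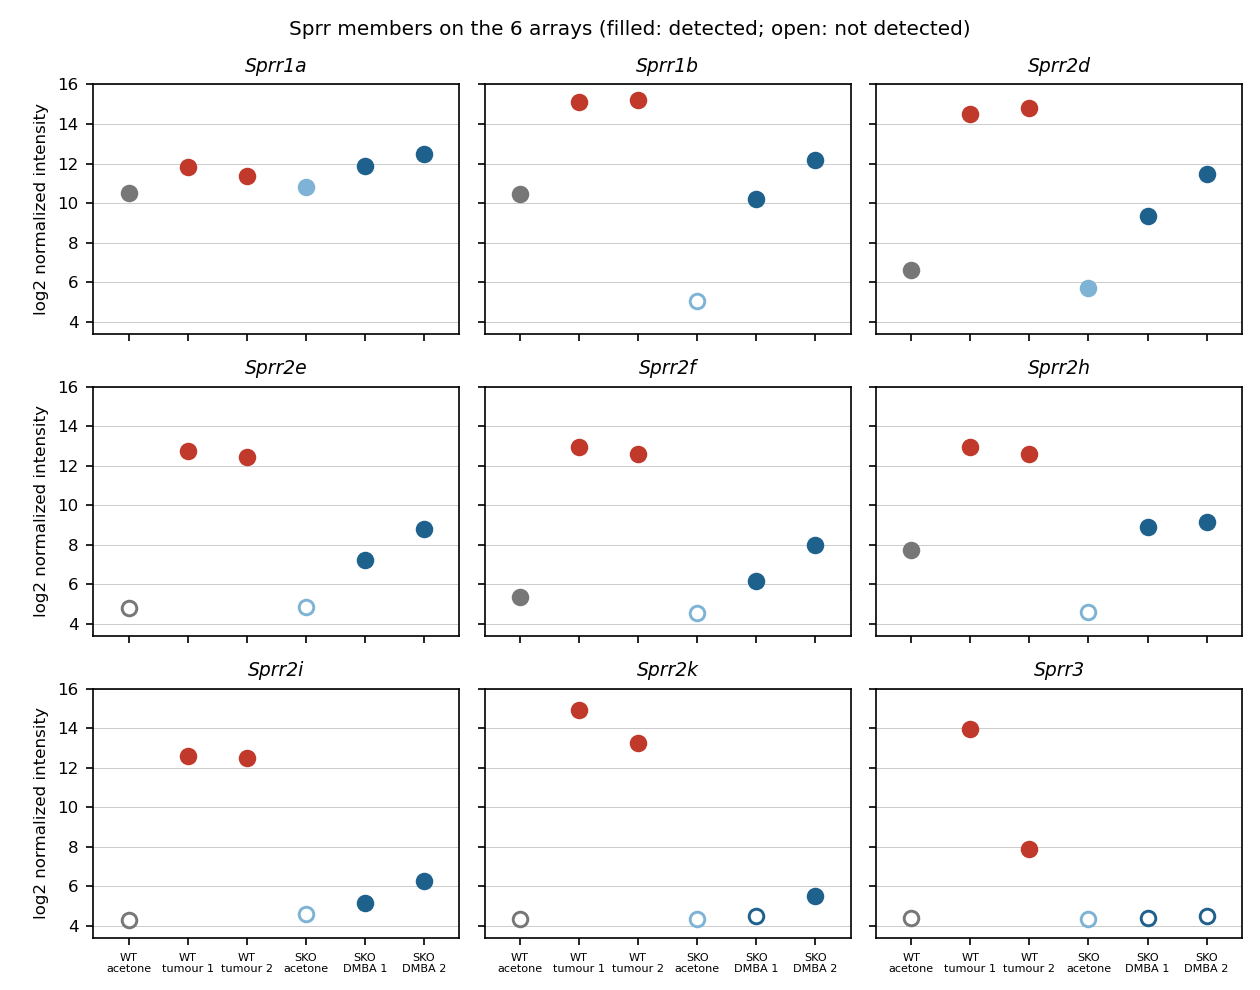
Background-corrected, normalized log2 signal of the 9 Sprr genes on each of the 6 arrays, 1 panel per gene, with open symbols for arrays on which the probe was not detected. The tumour points lie above all skin points in 8 panels, Sprr1a has its highest points in SKO DMBA skin, and Sprr3 shows its tumours far apart.

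Counted over the family, 8 of 9 genes had both tumours above every skin array, all but Sprr1a, where 26.2% of the 11998 genes tested did so. The median tumour difference from WT acetone skin was 7.41 over the 9 genes and -0.01 over all genes tested, in log2. Taken singly, tumour 1 gave a family median of 7.87 and tumour 2 one of 7.23. Tumour 1 was the higher tumour for 7 of 9 genes, against 50.5% of all genes, and Sprr1b and Sprr2d were the exceptions. The genes were selected on these tumour levels, so these counts describe the choice. With limma's adjusted p below 0.05 as the threshold, 0.00% of the 11998 genes were called here. Unadjusted, 8.68% of all genes passed as higher and 12.5% as lower. Both tumours exceeded WT acetone skin for 9 of 9 Sprr genes and for 39.4% of all genes, and no Sprr gene had both tumours below every skin array, the order of 27.2% of all genes. With tumour 1 left out 4.94% of all genes were called, and with tumour 2 left out 23.7%, but each of these fits sets 1 array against 1 and takes its spread from the SKO DMBA pair. With undetected signals raised to the lowest detected signal of the array, 0.517% were called. In tissue samples, more cells of a type and more RNA per cell cannot be told apart.

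The comparison of DMBA-painted with acetone-painted SKO skin asks how the family responds to DMBA without STING. Its differences come from arrays other than the tumours, but its standard errors and p-values also take spread from the tumour pair. Both SKO DMBA arrays lay above the SKO acetone array for 9 of 9 genes, where 38.6% of all genes tested did so, but for Sprr3 none of these arrays gave a detected signal and for Sprr2k only 1 did. Sprr1b had the largest difference, 6.11 in log2 (SE 0.86, 2 arrays against 1, limma adjusted p = 0.366), at least 61.3-fold above undetected SKO acetone skin. Sprr2d differed by 4.67 (SE 0.93, limma adjusted p = 0.459), and Sprr2h by 4.43 (SE 0.30, limma adjusted p = 0.145), the latter at least 13.7-fold. Without background correction the differences of Sprr1b, Sprr2d and Sprr2h were 4.74, 3.71 and 2.90. Neither these nor any other of the 9 genes passed the test, in which limma called 0.00% of all genes, 0 of 11998. At an unadjusted p under 0.05, 6 of 9 Sprr genes were higher, beside 3.98% of all genes, and 0 of 9 were lower, beside 3.77%. The family median was 2.50 in log2, against 0.00 over all genes.

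The remaining genes had smaller SKO differences. Sprr2e was 3.15 higher in log2 (SE 0.70, limma adjusted p = 0.501), at least 6.79-fold. Sprr2f was 2.50 higher (SE 0.80, limma adjusted p = 0.600), at least 3.55-fold, and Sprr2i was 1.12 higher (SE 0.53, limma adjusted p = 0.731), at least 1.39-fold. Sprr1a, detected throughout, was 1.38 higher (SE 0.39, limma adjusted p = 0.579). For Sprr2k the fitted difference was 0.64 (SE 0.84, limma adjusted p = 0.903), and for Sprr3 it was 0.09 (SE 2.52, limma adjusted p = 0.996), with undetected signals on both sides.

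The SKO result depended on which arrays estimated the spread. When either tumour array was left out, or when the 3 SKO arrays were fitted by themselves, limma called 2 of the 9 genes, Sprr1b and Sprr2h, both higher, beside 1.68% of all genes. Each of these fits estimates the spread from the 2 SKO DMBA arrays and no others. With either SKO DMBA array left out, no Sprr gene was called. The second SKO DMBA array also lay above the first for 9 of 9 genes, against 46.5% of all genes, by 1.17-fold for Sprr2h and up to 4.48-fold for Sprr2d. Against SKO acetone skin the first array gave a family median of 1.59 and the second one of 3.42.

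Several marker lists moved with this comparison. The summed linear signal of hair shaft and sheath markers was 2649.6 in SKO acetone skin and 67191.7 and 92624.3 in SKO DMBA skin. Wound keratins summed to 33290.8 in SKO acetone skin and to 52652.0 and 60370.1 in SKO DMBA skin. Neutrophil markers summed to 681, against 2857.3 and 6194.1 after DMBA, and melanocyte markers to 2624.8, against 4305.3 and 8221.6. S100a8 and S100a9, which keratinocytes also make, made up most of the neutrophil sums. Adipocyte markers went the other way, from 30565.7 to 11120.0 and 4956.7. Basal keratinocyte markers lay between 62668.4 and 64053.3 over the 3 SKO arrays. The part of these signals in the Sprr differences was not tested.

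Set against SKO DMBA skin, the WT tumours were higher for the same 8 genes, with no overlap between the pairs of arrays, where 31.6% of all genes showed that order. The family median was 4.57 in log2, and limma called 0.00% of all genes after adjustment, with 12.4% higher and 17.0% lower before it. It called 7.88% without tumour 1 and 31.3% without tumour 2, when 1 tumour array remained and the SKO DMBA pair gave the spread. Raising undetected signals gave 3.48%, and omitting the background correction, or using the authors' values, gave 0.0583%. The difference was 9.06 for Sprr2k (SE 0.68), which was undetected on 1 of the 2 SKO DMBA arrays and is limited by background there. It was 6.82 for Sprr2i (SE 0.43), a 113-fold difference. Sprr3 was at least 56.8-fold higher in the tumours, but its log2 difference of 6.50 became 3.45 without tumour 1 and 9.55 without tumour 2. Sprr2f was 5.69 higher (SE 0.66). Sprr2e (4.57, SE 0.57), Sprr2d (4.25, SE 0.76), Sprr1b (3.97, SE 0.70) and Sprr2h (3.76, SE 0.24) came next. Sprr1a had the opposite sign, at -0.58 (SE 0.32).

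The tumour difference from WT acetone skin minus the SKO DMBA difference from SKO acetone skin is given as a description. It was 9.07 (SE 1.18) for Sprr2k, 7.11 (SE 0.75) for Sprr2i and 6.45 (SE 3.56) for Sprr3. Sprr2f (4.91, SE 1.14), Sprr2e (4.64, SE 0.99) and Sprr2d (3.37, SE 1.32) followed. For Sprr2h the value was 0.62 (SE 0.42), for Sprr1a -0.32 (SE 0.55) and for Sprr1b -1.40 (SE 1.21). With so few arrays and genes selected on tumour signals, the standard errors do not decide which of these values differ from 0. Sprr1b and Sprr2h are also the genes whose starting level differed most between the genotypes.

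**Figure D3:**
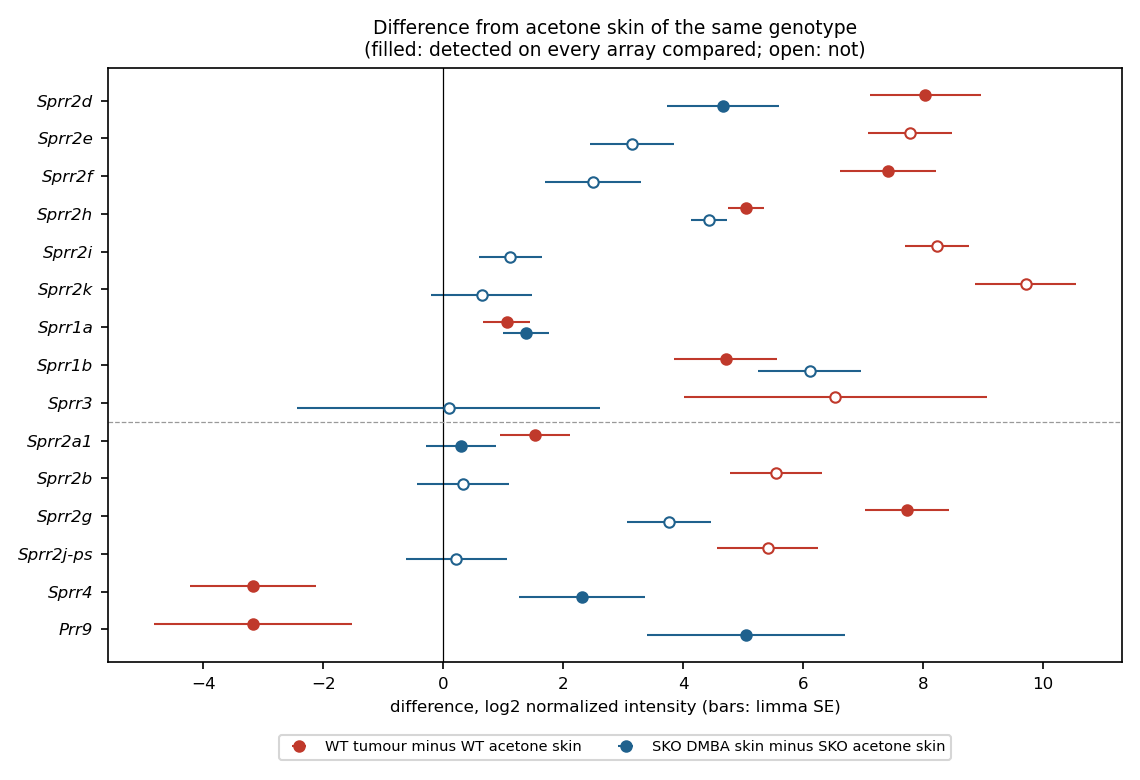
Log2 differences of the 9 Sprr genes and 6 neighbours from acetone skin of the same genotype, with bars of 1 standard error from limma. Open symbols mark genes not detected on every array compared. Sprr2k lies at 9.71 in the tumour and 0.64 in the SKO comparison with acetone skin, and Sprr1b at 4.71 and 6.11.

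The acetone samples compare the genotypes without carcinogen, with 1 array each and so no replicate check. Sprr1b was detected in WT acetone skin and not in SKO acetone skin, where it was at least 36.8-fold lower. Sprr2h was at least 5.59-fold lower there. Both bounds rest on the background correction: without it the log2 differences were -4.02 for Sprr1b and -1.80 for Sprr2h, in place of -5.37 and -3.14. These were 2 of 9 genes over 2-fold lower in SKO acetone skin, where 3.49% of all genes were, and no Sprr gene was over 2-fold higher, where 2.31% of all genes were. Sprr2d was 0.88 log2 units lower and Sprr1a 0.26 higher, and the remaining genes had at most 1 detected acetone sample. The family median was -0.05. Hair markers summed to 65650.6 in WT acetone skin against 2649.6 in SKO acetone skin, and their part in the Sprr1b and Sprr2h values was not tested.

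The family can be described by 4 patterns over the arrays, which are not sharply apart. Sprr2k and Sprr3 were detected in tumours and almost nowhere else. Sprr2d, Sprr2e, Sprr2f and Sprr2i had low or undetected acetone signals, higher SKO DMBA signals and high tumour signals. For Sprr2i the signal of the first SKO DMBA array lay just above detection. Sprr1b and Sprr2h were over 2-fold higher in WT than in SKO acetone skin, though Sprr2h also had SKO DMBA signals between acetone and tumour. Sprr1a was detected on all arrays with its highest values in SKO DMBA skin. The distance of each gene's centred log2 profile from the mean profile of the 9 was smallest for Sprr2f, at 1.12, and for Sprr2e, at 1.45. It was largest for Sprr1a, at 6.80, followed by Sprr3, at 4.35, and Sprr2k, at 4.32. Outside the family the 5 genes closest to that mean profile over the 6 arrays were the kallikrein protease Klk13 at 0.96, the protease inhibitor Serpinb3a at 1.03, the late cornified envelope genes Lce3b at 1.32 and Lce3f at 1.39, and Teddm3 at 1.37.

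Neighbours in the Sprr locus did not all follow the 9 genes. Sprr2g, between Sprr2f and Sprr2h, read 99.9 in WT acetone skin, 9258.5 and 8885.1 in the tumours, 77.2 in SKO acetone skin, and 250.4 and 587.2 in SKO DMBA skin, an order like that of its neighbours. Sprr2b read 71.1 in WT acetone skin, 1687.7 and 588.3 in the tumours, 77.9 in SKO acetone skin, and 78.1 and 90 in SKO DMBA skin, and was detected in the tumours alone. The pseudogene Sprr2j-ps was likewise detected only in the tumours, at 1473.2 and 465.5. Sprr2b has the AP-1, octamer and TATA letters of the Sprr2 members in its window.

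Sprr2a1 was detected on every array by its chosen probe, with 611.5 in WT acetone skin, 782.3 and 2105.8 in the tumours, 603.9 in SKO acetone skin, and 701.4 and 791.5 in SKO DMBA skin. Its other probe gave 91.7 in WT acetone skin, 100.3 and 167.2 in the tumours, and 98.6, undetected, in SKO acetone skin. In SKO DMBA skin that probe gave 95.8 and 99.8. On the chosen probe the Sprr2a1 tumour difference was 1.53 in log2 (SE 0.58). The promoter window of the gene held none of the AP-1, octamer or TATA letters. That window aligned with those of the Sprr2 members over only 2 to 87 bases, against at least 277 among the members. Its missing letters are therefore not a like-for-like comparison with them.

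At the locus ends the order turned round. Sprr4 read 4197.3 in WT acetone skin, 177.8 and 1009.2 in the tumours, 1696.6 in SKO acetone skin, and 8284.3 and 7090 in SKO DMBA skin. Both tumours lay below all 4 skin arrays and both SKO DMBA arrays above the rest. Prr9, a proline-rich gene next to Sprr2a1 among the tested genes, read 10495.3 in WT acetone skin, 264 and 4492.9 in the tumours, 511.8 in SKO acetone skin, and 14534.6 and 13173.6 in SKO DMBA skin. Its tumours were below WT acetone skin and its SKO DMBA arrays were the highest. Summed hair markers were likewise lowest in tumour 1 and SKO acetone skin and highest in SKO DMBA skin. Their part in the Prr9 values was not tested. Over these 6 neighbours the tumour median was 3.47 and the SKO DMBA median 1.32, and none was called by limma in either comparison.

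**Figure D4:**
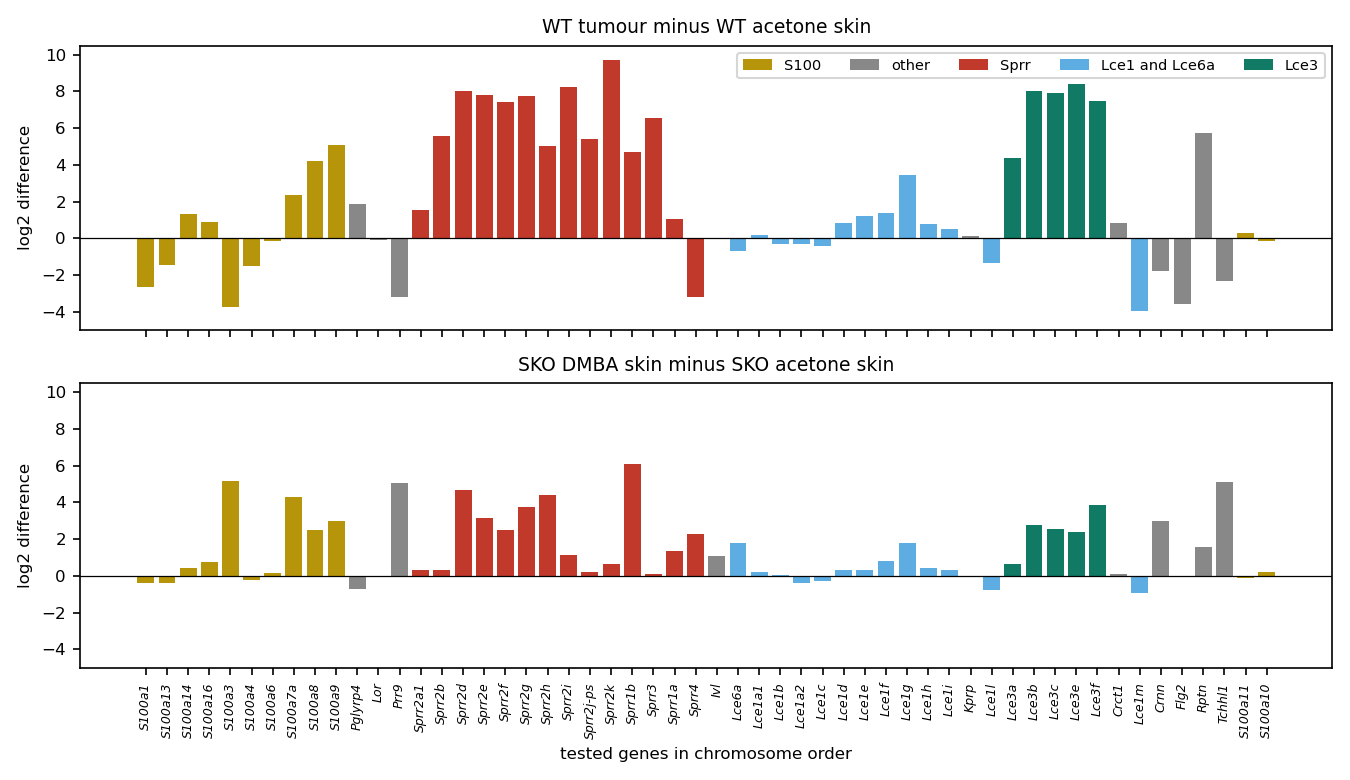
Log2 differences for the 54 tested genes of the epidermal differentiation complex in chromosomal order, coloured by gene family. The upper panel shows WT tumours minus WT acetone skin, the lower panel SKO DMBA skin minus SKO acetone skin. In the upper panel the run from Sprr2b to Sprr3 is the longest above 4. Sprr2a1 at 1.53 and Sprr1a at 1.06 flank it, and Prr9 and Sprr4 beyond them lie at -3.17.

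In the order of the annotation, 54 tested genes fall between the outermost S100 genes of the complex. A tumour difference above 4 in log2 was found for 8 of the 9 Sprr genes and for 11 of the 45 others. Those 11 include the Sprr2 neighbours Sprr2b (5.55), Sprr2g (7.74) and Sprr2j-ps (5.41). The 9 genes were selected on tumour signals, so their count describes that choice and sets no contrast with the others. Of those 45 genes, 18 had both tumours above every skin array and 6 had both below, against 26.2% and 27.2% of all genes tested. Sprr2a1 and the Sprr2 neighbours named above are among the 18.

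The transglutaminases, which cross-link Sprr proteins, were all 4 on the array, and none passed the test in either comparison with acetone skin. Their median tumour difference was 2.07, and 3 of 4 had both tumours above WT acetone skin, as did 39.4% of all genes. Tgm3 was 4.52 higher in log2 (SE 1.01), Tgm1, the keratinocyte membrane enzyme, 2.72 higher (SE 0.56) and Tgm5 1.43 higher (SE 0.27). The tissue enzyme Tgm2 was at -2.22 (SE 1.03). In SKO DMBA skin the median was 0.50, from -0.61 for Tgm5 to 0.94 for Tgm3.

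The other envelope precursors and their desmosomal scaffold had 11 tested genes of 13, with a tumour median of 0.82 and an SKO DMBA median of 0.23. Loricrin (Lor) was at -0.10 (SE 0.27) and involucrin (Ivl) at -0.04 (SE 0.39) in the tumours, the lowest values of the list. Cornifelin (Cnfn), at 3.35 (SE 0.69), and plakoglobin (Jup), at 1.83 (SE 0.27), were the highest. None was called. In SKO DMBA skin Cnfn was at 1.13 (SE 0.69) and Ivl at 1.07 (SE 0.39), with periplakin (Ppl) lowest at -0.19.

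Of 21 late cornified envelope genes 18 were tested, with a tumour median of 0.81 and no calls. Lce3b was 8.01 higher in log2 (SE 0.83), and Lce3e was at least 195-fold above undetected WT acetone skin. Lce1m was at -3.96 (SE 0.53) and Lce1l at -1.34 (SE 0.97). Among the proteins with a fused S100 domain, 4 of 7 were tested, and 3 of those 4 were lower in both tumours than in WT acetone skin, as were 40.8% of all genes. Flg2, a filaggrin relative, was at -3.55 (SE 0.76) and Tchhl1 at -2.32 (SE 0.95), against 5.73 (SE 0.35) for repetin (Rptn). In SKO DMBA skin the medians of these lists were 0.38 and 2.28.

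Of the S100 genes of the complex 12 of 13 were tested, with 6 higher and 6 lower in the tumours and a median of 0.06. The neutrophil and keratinocyte alarmins S100a9 and S100a8 were at 5.06 (SE 0.60) and 4.24 (SE 0.52), while S100a3, a hair cuticle protein, was at -3.75 (SE 1.67) and S100a1 at -2.66 (SE 0.70). In SKO DMBA skin S100a3 was at 5.18 (SE 1.67) and S100a7a was at least 11.1-fold above undetected SKO acetone skin. None of the 12 was called in either comparison.

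Transcription factors tied to Sprr genes, 20 tested of 25, had a tumour median of 0.17 and an SKO DMBA median of 0.06, with no calls. Elf3, an epithelial Ets factor known to act on SPRR2 promoters in human keratinocytes, was undetected in WT acetone skin and at least 18.2-fold higher in the tumours. Nfe2l2, the oxidative stress factor, was at 2.16 (SE 0.81). The AP-1 subunits Fosb and Fos were the lowest, at -3.20 (SE 0.95) and -0.66 (SE 0.58). In SKO DMBA skin the AP-1 subunit Junb was highest, at 1.14 (SE 0.30, limma adjusted p = 0.556), followed by Cebpb at 0.81 (SE 0.27).

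Cytokines and growth factors that act on keratinocytes had 12 tested genes of 20, of which 11 had both tumours above WT acetone skin, against 39.4% of all genes. Their tumour median was 1.93. Il24, of the interleukin-20 subfamily, was 6.09 higher in log2 (SE 0.58) and Il19 at least 57.0-fold higher. At the low end Tgfa was at least 2.07-fold higher and Tnf was not detected in either group. In SKO DMBA skin the median was 0.43, with Il1b at 1.38 (SE 0.46, limma adjusted p = 0.602) and Osm at 1.12 (SE 0.25, limma adjusted p = 0.494). None was called.

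Cell type markers place these values. Basal keratinocyte markers were detected on every array, 5 of 5, and their summed signal ran from 62668.4 to 67642.2. Suprabasal markers ran from 47817.3 in SKO acetone skin to 59293.5 in tumour 2. Wound keratins summed to 147753.0 and 133420.9 in the tumours, against 33290.8 to 60370.1 on the skin arrays, the same order of tumour over skin as 8 of the 9 Sprr genes. Of the 4 wound keratins, Krt17 did not share that order. In the tumours it was at 0.03 in log2 against WT acetone skin and -0.06 against SKO DMBA skin. Neutrophil markers summed to 54569.0 and 65517.7 in the tumours against 681 to 6194.1 in skin. S100a8 and S100a9, which keratinocytes also make, made up most of the tumour sums. Of the same list, Csf3r was at -0.44 in log2 in the tumours against SKO DMBA skin. The part of these cells in the Sprr values was not tested.

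Muscle, adipocyte, fibroblast and macrophage sums were lower in both tumours than on every skin array. Skeletal muscle markers summed to 108 in tumour 1, with 1 of 6 detected, and to 16800.5 in tumour 2, against 73149.2 to 154954.1 in skin. Adipocyte markers summed to 51.8 in tumour 1, with 0 of 5 detected, and to 1978.1 in tumour 2, against 4956.7 to 30565.7 in skin. Fibroblast markers summed to 2038.0 and 15312.1 in the tumours and to between 31231.2 and 47511.4 in skin. Macrophage markers summed to 802 and 5042.8 in the tumours against 7735.4 to 16352.4 in skin. Hair, melanocyte and T cell sums of tumour 2 overlapped those of skin. Hair markers summed to 1035.4 and 21192.4 in the tumours and from 2649.6 to 92624.3 in skin. Melanocyte markers summed to 320 and 5192.5 in the tumours and from 2624.8 to 12163.8 in skin, and T cell markers to 151 and 814 in the tumours and from 453 to 1749.5 in skin. Tumour 1, which had the lowest sums for all of these tissues, was also the sample with the higher Sprr3 and Sprr2k signal, and the part of tissue composition in those values was not tested.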

How the data were processed

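RNA of skin or tumour was hybridised to 6 one-colour Illumina BeadChip arrays, 1 sample each, after RNeasy extraction and conversion to biotinylated cRNA, per the labels' protocols. The deposited non-normalized table holds a linear intensity and a detection value per probe, per the file headers. The deposited detection p-values rise with the signal, so 1 minus the value served as detection p here. The authors' deposited log2 matrix matched quantile-normalized signals without background correction, centred on each probe's median, and served as an alternative. No source used here names the scanner software.

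The neqc function of limma 3.58.1 (R 4.3.3, offset 16) corrected background, quantile-normalized the signals and took log2. Of the probes, 34885 had 1 gene in the platform annotation, 18 had several and 10378 had none, and symbols were updated from a RefSeq table (GRCm38.p6) that held 34807 of the first. Each gene was read from its probe with the highest mean. The 11998 genes detected on 1 array or more (p below 0.01) were fitted with lmFit and eBayes of limma as 4 group means, leaving 2 residual and adding 2.44 prior degrees of freedom. Each acetone group, with its 1 array, takes its spread from the groups of 2. P-values were Benjamini-Hochberg adjusted over all genes, with a threshold of 0.05, and SE is the moderated standard error. The fit was tested on simulated data, where a high share of true differences called was required only at noise far below that of these arrays. The share called at the noise of these arrays is not reported here.

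The 9 Sprr genes, the gene and marker lists and the tests were chosen with earlier results of these data known, so p-values of the 9 genes are given only for SKO DMBA skin minus SKO acetone skin. That comparison was in view too and is not independent evidence. Genes named from a list are among its 2 highest and 2 lowest differences, and the text names 5 genes most like the family by Euclidean distance of centred log2 profiles. Promoter windows were searched with Python 3.11.15 and aligned with Biopython 1.88. The alternatives tried were no background correction, a larger offset, the authors' values, other normalizations and detection rules, subsets of arrays, and each array of a pair left out.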

Additional observations from a re-analysis of the deposited data

Results flagged for a closer look

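Sprr4 and Prr9, at the ends of the Sprr locus, were marked because the arrays of each genotype moved in opposite directions. Only the 9 Sprr genes and their 6 neighbours were searched for this, and the share of all genes was not counted. The order is not particular to the locus: S100a3 was at -3.75 in the tumours and 5.18 in SKO DMBA skin, and Tchhl1 at -2.32 and 5.09. For Sprr4 both tumours lay below WT acetone skin and both SKO DMBA arrays above SKO acetone skin, and the WT minus SKO difference of these responses was -5.48 in log2 (SE 1.49, limma adjusted p = 0.539, 6 arrays). For Prr9 the same difference was -8.23 (SE 2.34, limma adjusted p = 0.539, 6 arrays). Neither passed the test of the difference itself, and the cause was not tested. No group held enough arrays for a search for single outlying samples.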

How the results depend on the processing

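The tumour median of the 9 Sprr genes over WT acetone skin, 7.41 in log2, was 6.18 without background correction and with the authors' values, 6.55 with an offset of 50, and 4.55 with only the 2 genes detected on all 6 arrays. The SKO DMBA median, 2.50, was 1.38, 1.37 and 1.59 without background correction, with the authors' values and with that offset. Against SKO DMBA skin those 2 genes gave 1.84 in place of 4.57. Leaving out 1 array gave medians from 7.23 to 7.87 over WT acetone skin, from 1.59 to 3.42 for SKO DMBA over SKO acetone skin, and from 3.78 to 5.36 for tumours over SKO DMBA skin. The number of Sprr genes past limma's adjusted threshold, 0 in all 3 comparisons, was less stable. Leaving out 1 array gave 0 to 8, 0 to 2 and 0 to 8 genes in the same order, with 0 without either SKO DMBA array, and with 7, 2 and 8 without tumour 1 and 8, 2 and 8 without tumour 2. With a tumour left out, the spread comes from the SKO DMBA pair alone, and since the Sprr genes were selected on tumour signals, its calls there support nothing. Of all genes, up to 2841, 202 and 3754 were then called. The 3 SKO arrays alone gave 2 Sprr genes. With undetected signals raised to each array's lowest detected signal, 6 Sprr genes were called over WT acetone skin and 7 over SKO DMBA skin. Of all genes, 0.517% and 3.48% were called there. Without background correction or with the authors' values, 2 Sprr genes were called over SKO DMBA skin, beside 0.0583% of all genes. These tumour calls too are on genes selected on tumour signals and support nothing. Raising undetected signals also turned the acetone median of SKO minus WT from -0.05 to 0.15, Sprr3 there to 0.15, and Sprr3 in the SKO DMBA comparison to -0.14, all between undetected signals. The cause of the other shifts was not tested. With equal array medians the median of all genes moved to -0.27, and without normalization between arrays to -0.39, in the tumour comparison with WT acetone skin. No paired analysis was possible because the replicate numbers follow accession order and the labels give the groups no shared numbers. A slide block was not run, since no slide is given in the sources used here. Faint probes such as Sprr2i, Sprr2k and Sprr3 in skin were limited by background.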
